A study of Mus musculus with 6 samples.

Results

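The genes described here are 69 axon guidance genes among the 21938 genes measured in the soft palate of mouse embryos at E14.0. They were chosen by name from the semaphorin, plexin, neuropilin, Slit, Robo, ephrin, Eph receptor, netrin, Unc5 and Dcc/Neo1 families in the expression table. Robo4, Ntng1 and Ntng2 were left out of the set and counted among its partners and effectors. The set holds 20 semaphorins, 9 plexins and 2 neuropilins, 3 Slits and 3 Robos, 8 ephrins and 14 Eph receptors, 4 netrins and 6 netrin receptors. The study compared 3 control libraries (replicates 1, 2 and 3) with 3 mutant libraries (replicates 5, 6 and 7), each made from RNA of soft palate tissue. The controls carried floxed alleles of the beta-catenin gene, b-catenin fl/fl, per the protocol, although their strain and genotype labels read wild type. The mutants were Osr2-Cre;b-catenin fl/fl, so that the same floxed alleles are recombined by Cre under the control of Osr2, a gene of the palatal mesenchyme. Epithelium, muscle, nerve and blood cells of the same tissue pieces were also sequenced. The series title places the comparison in a study of canonical Wnt signalling and cilia in soft palate development. The labels do not say whether a library came from 1 embryo or several, and p-values measure only the spread between these libraries.

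Guidance ligands steer growing axons, and they also direct migrating mesenchymal, muscle and endothelial cells. Class 3 semaphorins are secreted and signal through plexins with neuropilins as co-receptors, while semaphorins of classes 4 to 7 are mostly bound to the membrane and act on plexins directly. Slits repel cells through Robo receptors. Ephrins and Eph receptors signal between touching cells in both directions, and Efnb1, Ephb2 and Ephb3 are known for their roles in the closing palate. Netrins attract through Dcc and Neo1 and repel through Unc5 receptors, and Ntn1 is a textbook midline cue.

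Values are CPM, reads of a gene scaled to a common library total, and changes are log2 differences, mutant minus control, on the log2(CPM + 1) scale from limma, adjusted by Benjamini-Hochberg over all 21938 genes. On this scale the change of a gene with few reads is understated. A call is an adjusted p below 0.05. Estimated reads per library ranged from 10018705 to 15089465, so that 3 reads correspond to 0.199 to 0.299 CPM. Beta-catenin itself (Ctnnb1) measured 671 to 784 CPM in the controls and 582 to 633 CPM in the mutants, a log2 change of -0.26 ± 0.10 (SE; limma adjusted p = 0.183). This value is for the whole gene and counts reads from outside the floxed exons and from cells without Cre. Osr2 fell by 1.47 in the mutants (limma adjusted p = 0.0285). The call of Osr2 was lost without control 1, control 3 or any 1 mutant (limma adjusted p = 0.0691 to 0.130). It was also lost with the sex of the embryo material as a covariate (0.0570) and without the intensity trend of the variance (0.0702). By these genotypes only the mutants carried Osr2-Cre, so an effect of that allele cannot be told apart from that of the recombined beta-catenin alleles. Xist was above 100 CPM in control 3 and mutant 7 only, so the libraries within each group differ in the sex of the embryo material. Counting in whole tissue cannot tell fewer cells of a type from less RNA per cell. The summed level of 10 skeletal muscle markers was 6490 to 13848 CPM in the controls and 4382 to 5428 CPM in the mutants, with 5 of the 10 genes called, all lower. The summed level of 10 neuron markers was 468 to 910 CPM in the controls and 166 to 791 CPM in the mutants, with the highest mutant value in mutant 5. Of the other lists, 3 had sums that did not overlap between the groups. These sums were 514 to 1399 CPM in controls and 223 to 362 CPM in mutants for erythroid genes, 450 to 518 and 284 to 331 CPM for smooth muscle and pericyte genes, and 108 to 305 and 338 to 461 CPM for multiciliated cell genes. Taken singly, only 2 of the 8 smooth muscle and pericyte genes, or 25%, were lower without overlap, and 1 of the 8 changes was above 0. Within that sum Acta2 averaged 157 CPM in the controls and 56.8 CPM in the mutants. The part of any of these cell types in the values given here was not tested. Calls over the whole table depended on single libraries: 105 genes were called in all, none without control 1, control 3, mutant 5 or mutant 6, 2 without mutant 7 and 452 without control 2.

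Sema6b fell in the mutants, and no other guidance gene passed the test. It was the 1 member of 69 called, or 1.45%, beside 0.479% of all genes (105 genes). At an adjusted p below 0.1, 3 members passed (Sema6b, Sema6c and Unc5d), beside 4.55% of all genes. At an unadjusted p below 0.05, 11 members passed, or 15.9%, which is below the 21.4% of all genes at that level. Of those 11 members, 4 were higher in the mutants (Unc5d, Sema3e, Unc5b and Unc5c) and 7 were lower (Sema6b, Sema6c, Plxna2, Sema5a, Efna2, Sema5b and Efnb3), while 13.4% of all genes were higher and 8.07% lower at that level. The control and mutant values of 10 members, or 14.5%, did not overlap, beside 27.8% of all genes. The median change of the 69 members was -0.07, with 24 above 0 and 45 below 0, and the median of all genes was 0.04. Among the 53 members at or above the median level of the table the median was also -0.07, beside -0.02 for all genes at that level. Fold intervals here and below are on the CPM + 1 scale, mutant over control and not adjusted. For 59 of the 69 members the 95% fold interval lay between 0.5 and 2. This scale narrows the fold of genes with few reads. Robo3, which is counted among the 59, had a fitted fold of 1.28 and a ratio of mean CPM of 2.20. No member was at 0 in any library.

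**Figure D1:**
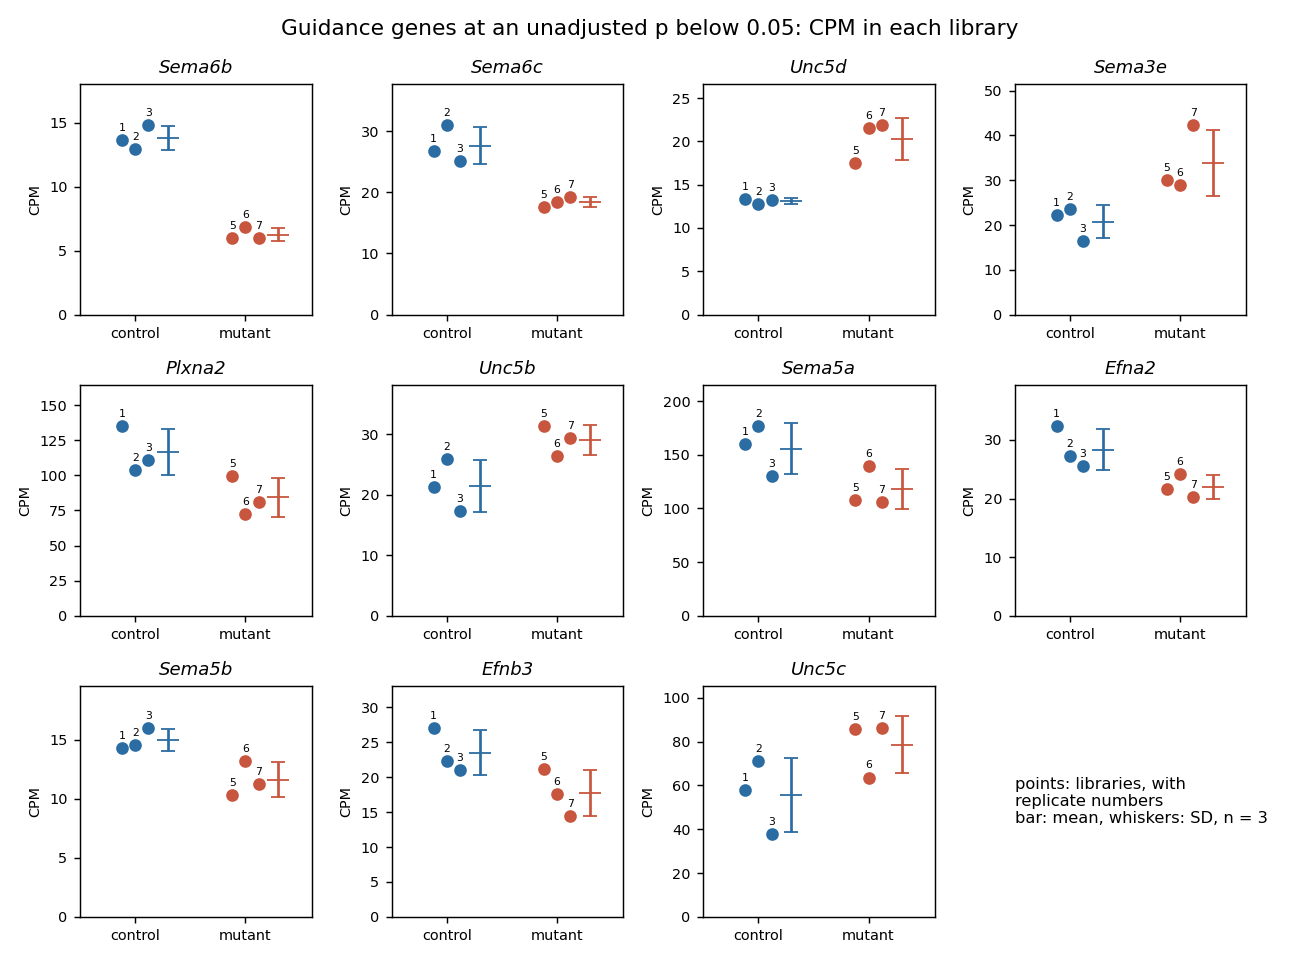
CPM (y axis, from 0) of the 11 guidance genes at an unadjusted p below 0.05, in 3 control libraries (blue) and 3 mutant libraries (red). Each point is a library with its replicate number, and bars and whiskers show the mean and SD (n = 3). Sema6b sits at 13.0 to 14.8 CPM in the controls and 5.95 to 6.84 CPM in the mutants.

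Levels were compared between genes per kilobase of exon, over all 6 libraries. Plxnb2, a receptor of class 4 semaphorins, was the highest member at 40.0 CPM per kb. It was followed by the receptor Ephb4 at 35.1, the receptor Plxna1 at 25.9, the ligand Efnb2 at 25.4 and the receptor Epha3 at 24.4 CPM per kb. The highest semaphorin was Sema3d at 15.9 CPM per kb, and the highest of the smaller families were Neo1 at 19.7, Nrp2 at 15.5, Robo1 at 14.8, Ntn1 at 12.9 and Slit3 at 10.3 CPM per kb. The semaphorins with the smallest p-values were less abundant, and Sema6b averaged 2.53 and Sema6c 3.88 CPM per kb. Robo3 was lowest at 0.0727 CPM per kb. Its values in CPM were 0.400, 0.299 and 0.234 in the controls and 0.896, 0.760 and 0.398 in the mutants, and controls 2 and 3 were at the level of 3 reads. Ntn5 was the other member with a mean below 1 CPM, at 0.439 to 0.999 CPM over the 6 libraries. The exons of Ntn5 share 519 bases, or 23.4%, with the gene Sec1 on the opposite strand, and the counting strand is not given.

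**Figure D2:**
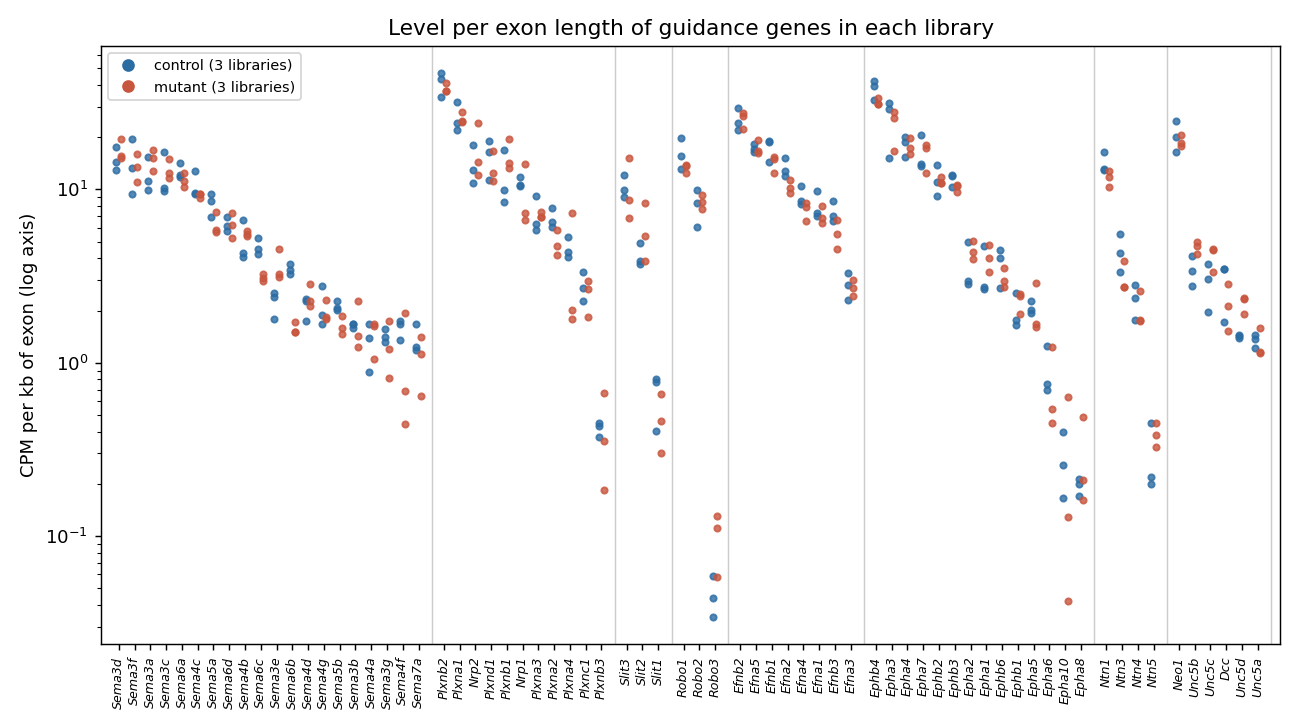
CPM per kb of exon (log axis) of the 69 guidance genes, ordered within their roles by mean level, with control libraries in blue and mutant libraries in red. Levels run from Plxnb2 (mean 40.0) to Robo3 (mean 0.0727), and for most genes the colours overlap.

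Sema6b, a transmembrane semaphorin of class 6 whose known receptors are class A plexins, fell to less than the lowest control value in every mutant library. Sema6b measured 13.7, 13.0 and 14.8 CPM in controls 1, 2 and 3 and 5.95, 6.84 and 5.96 CPM in mutants 5, 6 and 7. The groups were far apart compared with their own spread, at 13.8 ± 0.917 CPM against 6.25 ± 0.512 CPM (SD, n = 3 each). The log2 change was -1.03 ± 0.14 (SE), with a limma adjusted p of 0.0296 and a 95% fold interval of 0.391 to 0.613. The log2 change was -1.13 with a pseudocount of 0.1 CPM and -1.01 with median scaling. It was between -1.09 and -0.98 when 1 library was left out. A filter, other variance priors and the sex covariate cannot move this estimate, since high Xist is balanced between the groups. The call of Sema6b was lost in 5 of 6 fits that left out 1 library. The limma adjusted p-values were 0.105 without control 1, 0.0925 without control 3, 0.0764 without mutant 5, 0.0927 without mutant 6 and 0.151 without mutant 7. It was also lost with the sex of the embryo material as a covariate (limma adjusted p = 0.0622) and without the intensity trend of the variance (0.0702). The muscle marker sum was also lower in all 3 mutants, and its part in the Sema6b values was not tested. The gene lies on chromosome 17 at chr17:56123085-56140343 on the minus strand (GRCm38).

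Sema6c, a transmembrane semaphorin of the same class, showed the same separation at a smaller size. Sema6c stood at 26.8, 30.9 and 25.2 CPM among control libraries, against 17.6, 18.3 and 19.3 CPM among mutant libraries. Every mutant library was below every control library, with a change of -0.56 ± 0.12 (SE) and a limma adjusted p of 0.0697. The gene lies at chr3:95160457-95174024 on the plus strand. Sema6a and Sema6d completed the class. Sema6a was at 125, 103 and 106 CPM across controls 1 to 3 and 109, 98.5 and 91.1 CPM across mutants 5 to 7 (-0.16 ± 0.11), so the groups overlapped. Sema6d was even closer, at 66.3 ± 6.40 CPM in the controls and 66.2 ± 10.8 CPM in the mutants (SD, n = 3 each). Over the 4 genes the median change was -0.36, and none was above 0.

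Promoter stretches are shown for the 3 semaphorins with the smallest p-values and for Nrp2, the 1 member whose window held the TCF/LEF letters CTTTGAT. TCF/LEF factors are the DNA-binding partners of beta-catenin. Each stretch runs 5′ to 3′ on the gene's strand from 250 to 51 bases before the RefSeq start (GRCm38.p6), and capitals mark a match to CTTTGAT. The positions are chr17:56140394-56140593 for Sema6b, on the minus strand, and chr3:95160170-95160369 for Sema6c, chr5:14025026-14025225 for Sema3e and chr1:62703067-62703266 for Nrp2, on the plus strand.
Sema6b: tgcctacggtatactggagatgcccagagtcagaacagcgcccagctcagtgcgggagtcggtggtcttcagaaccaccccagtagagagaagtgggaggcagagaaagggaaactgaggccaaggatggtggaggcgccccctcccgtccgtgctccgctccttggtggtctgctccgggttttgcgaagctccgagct
Sema6c: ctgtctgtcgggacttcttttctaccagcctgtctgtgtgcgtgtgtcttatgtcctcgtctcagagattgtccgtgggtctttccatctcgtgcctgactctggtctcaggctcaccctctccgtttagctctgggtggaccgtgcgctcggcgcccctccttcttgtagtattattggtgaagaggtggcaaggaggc
Sema3e: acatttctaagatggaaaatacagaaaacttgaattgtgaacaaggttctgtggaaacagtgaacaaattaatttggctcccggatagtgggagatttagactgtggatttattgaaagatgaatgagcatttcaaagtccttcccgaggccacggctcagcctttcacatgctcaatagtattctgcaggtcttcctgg
Nrp2: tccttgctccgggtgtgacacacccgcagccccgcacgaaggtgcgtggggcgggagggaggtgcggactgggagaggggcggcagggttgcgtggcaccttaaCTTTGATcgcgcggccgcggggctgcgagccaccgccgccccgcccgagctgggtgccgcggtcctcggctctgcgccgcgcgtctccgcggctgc
The share of G and C was 75.5% in the stretch of Nrp2, 61.5% in Sema6b, 56.0% in Sema6c and 41.0% in Sema3e. Windows from 250 bases before to 50 bases after the start were matched for 59 of the 69 members and 12979 genes in all, some with several starts, and both strands of each window were searched. CTTTGAT was found in 1.69% of the members and 3.11% of all genes with a window. The related form CTTTGTT was found for Efna4, Plxnb1 and Sema6d, or 5.08% beside 5.12%. The E-box form CAGCTG was found for 11 members, or 18.6% beside 18.5%. Sema6c is among them through its window at another start, chr3:95164089-95164388, and not through the stretch shown. The Gli letters GACCACCCA were found for 0 of the 59 members and 0.254% of all genes with a window. A match of letters is a description and not a binding site.

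Of the 7 secreted class 3 semaphorins, Sema3e had the largest log2 change between the genotypes. Sema3e, the ligand of Plxnd1 that guides vessels, measured 22.2, 23.6 and 16.5 CPM among control libraries, against 30.1, 29.0 and 42.3 CPM among mutant libraries. The lowest mutant value was above the highest control value, and mutant 7 was the highest. The change was 0.67 ± 0.18 (SE), with an unadjusted p of 0.00504 and a limma adjusted p of 0.103. Its gene lies at chr5:14025276-14256689 on the plus strand. Its receptor gene Plxnd1 stood at 119, 139.7 and 82.4 CPM across controls 1 to 3 and 122, 90.3 and 82.0 CPM across mutants 5 to 7, and the groups overlapped. The summed level of 10 endothelial markers also overlapped, at 212 to 337 CPM and 249 to 348 CPM.

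Sema3a, the prototype repellent, was at 214, 138 and 156 CPM among control libraries, against 178, 210.0 and 233 CPM among mutant libraries. Control 1 was as high as the mutants, and the change was 0.31 ± 0.17 (SE; limma adjusted p = 0.322). Sema3c, which acts on neural crest cells of the heart outflow tract, measured 117, 70.3 and 73.1 CPM across controls 1 to 3 and 89.1, 82.8 and 106 CPM across mutants 5 to 7. Sema3d stood at 112, 152 and 124 CPM among control libraries, against 133, 168 and 131 CPM among mutant libraries. For both genes control and mutant libraries were interleaved, and the changes were 0.13 ± 0.19 for Sema3c and 0.16 ± 0.14 for Sema3d (SE). The 7 genes of the class had a median change of 0.13.

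Both class 5 semaphorins, transmembrane proteins with thrombospondin repeats, were lower on average in the mutants and neither was called. Sema5a was at 161, 176 and 130.1 CPM across controls 1 to 3 and 108, 139 and 106 CPM across mutants 5 to 7. Its groups overlapped through control 3 and mutant 6, and the change was -0.40 ± 0.14 (SE; limma adjusted p = 0.164). Sema5b measured 14.3, 14.6 and 16.0 CPM among control libraries, against 10.3, 13.2 and 11.3 CPM among mutant libraries. Its groups did not overlap, with a change of -0.35 ± 0.14 (SE; limma adjusted p = 0.202).

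Class 4 semaphorins gave no member at an unadjusted p below 0.05, beside 21.4% of all genes. Sema4c, a ligand of Plxnb2, stood at 44.0, 58.6 and 43.3 CPM across controls 1 to 3 and 43.1, 43.1 and 40.9 CPM across mutants 5 to 7. The groups came apart by less than 1 CPM, and the change of -0.18 ± 0.13 (SE) had a limma adjusted p of 0.444. Sema4f was at 7.12, 9.18 and 8.80 CPM among control libraries, against 10.2, 2.36 and 3.64 CPM among mutant libraries. Mutant 5 was the highest of all 6 libraries while mutants 6 and 7 were the lowest. The change was -0.74 ± 0.39 (SE; limma adjusted p = 0.308) with all libraries and -1.24 (limma adjusted p = 0.0920) without mutant 5. Sema7a, which is anchored to the membrane by a lipid, measured 3.92, 5.49 and 4.05 CPM across controls 1 to 3 and 4.64, 3.73 and 2.12 CPM across mutants 5 to 7. These groups overlapped.

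**Figure D3:**
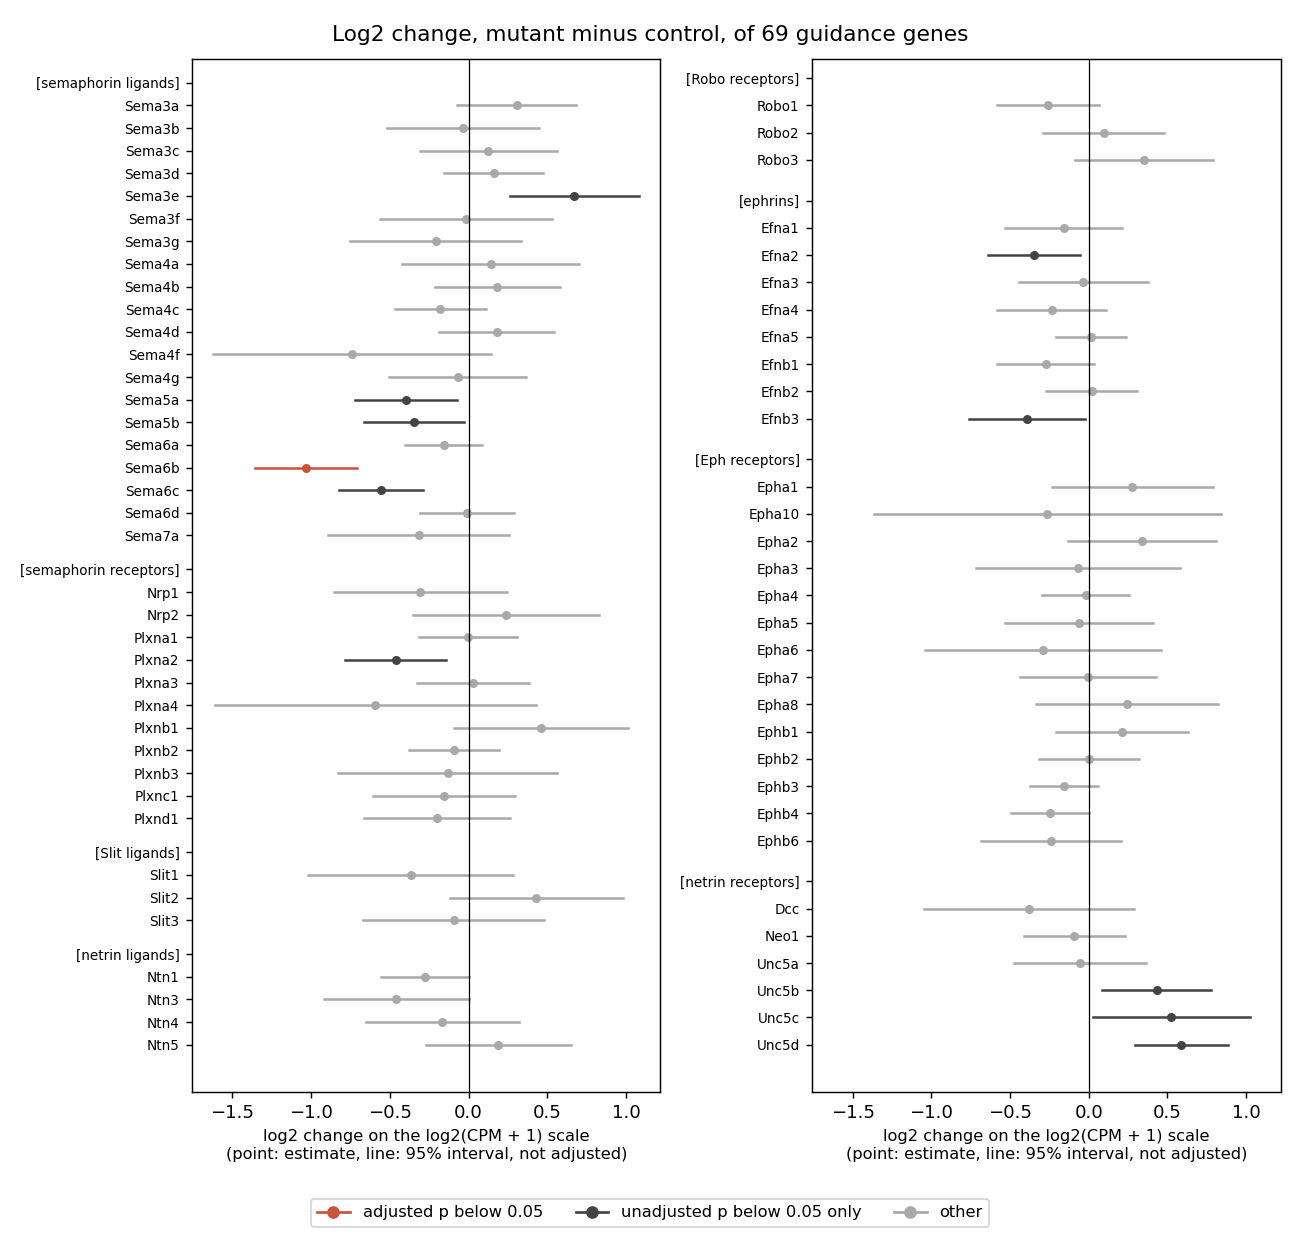
Log2 change, mutant minus control, on the log2(CPM + 1) scale for all 69 guidance genes, grouped by role, with points for the estimate and lines for the unadjusted 95% interval. Sema6b is farthest from 0 at -1.03, and the Eph receptors lie between -0.29 and 0.34.

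Among the 11 semaphorin receptors the median change was -0.13. Plxna2 was the 1 gene at an unadjusted p below 0.05, or 9.09%, beside 21.4% of all genes. Plxna2, a class A plexin that binds class 6 semaphorins, stood at 135, 104 and 111 CPM among control libraries, against 99.7, 72.1 and 81.3 CPM among mutant libraries. Control 1 and mutant 5 were the highest of their groups, and the highest mutant was still below the lowest control. The change was -0.46 ± 0.14 (SE), with an unadjusted p of 0.00987 and a limma adjusted p of 0.123. The gene lies at chr1:194618218-194816869 on the plus strand.

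Plxna4, which pairs with neuropilins for Sema3a and also binds class 6 semaphorins, split the mutant libraries. It was at 74.8, 61.8 and 57.2 CPM across controls 1 to 3 and 104, 28.4 and 25.2 CPM across mutants 5 to 7. Mutant 5 was above all controls and mutants 6 and 7 were below them all. The change was -0.59 ± 0.45 (SE; limma adjusted p = 0.479) over all libraries and -1.23 (limma adjusted p = 0.0637) without mutant 5. Nrp1, the co-receptor for Sema3a, was likewise above all controls in mutant 5 and below them in mutants 6 and 7, at 115, 102 and 104 CPM across controls 1 to 3 and 138, 71.6 and 65.0 CPM across mutants 5 to 7. Without mutant 5 its change went from -0.31 ± 0.24 (SE; limma adjusted p = 0.502) to -0.64 (limma adjusted p = 0.0726). Nrp2, the co-receptor for Sema3f, measured 214, 154 and 129 CPM among control libraries, against 287, 143 and 170.3 CPM among mutant libraries. Mutant 5 was again the highest library, and the change moved from 0.24 ± 0.26 (SE) to -0.05 without it. The neuron marker sum was 791 CPM in mutant 5, 166 CPM in mutant 6 and 302 CPM in mutant 7. It was highest in control 3, at 910 CPM, where Plxna4 was at 57.2, Nrp1 at 104 and Nrp2 at 129 CPM. The part of neurons in these values was not tested.

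The other plexins overlapped between the genotypes. Plxnb1, a receptor of Sema4d, stood at 95.1, 162 and 81.0 CPM across controls 1 to 3 and 128, 137 and 187 CPM across mutants 5 to 7 (0.46 ± 0.24, SE; limma adjusted p = 0.310). Control 2 stood above 2 of the 3 mutants, and without it the change was 0.75. Plxnb2 was at 336, 362 and 263 CPM among control libraries, against 287, 287 and 319 CPM among mutant libraries, which lie within the range of the controls. Plxna1 measured 220.0, 288 and 199.8 CPM across controls 1 to 3 and 220.4, 226 and 253 CPM across mutants 5 to 7, with a change that rounds to 0. Its exons share 970 bases, or 10.7%, with an antisense transcript, and since the counting strand is not given the reads of both cannot be told apart. Plxnc1, the receptor of Sema7a, stood at 19.0, 27.9 and 22.5 CPM among control libraries, against 24.9, 22.1 and 15.4 CPM among mutant libraries, again with overlap.

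**Figure D4:**
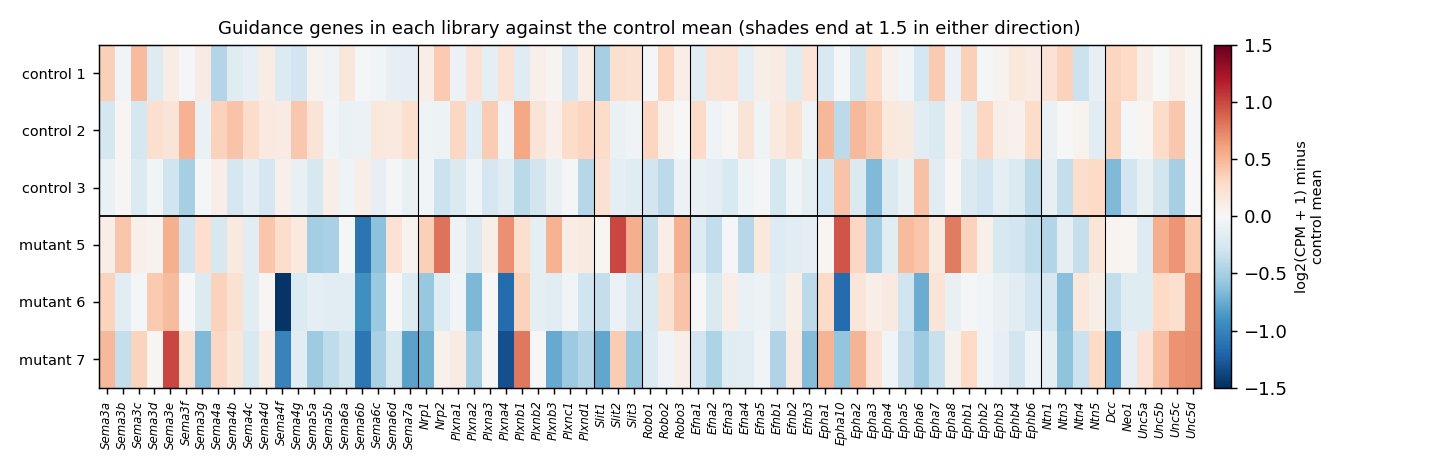
Log2(CPM + 1) of each guidance gene (columns, by role) in each library (rows) minus the mean of the 3 controls, with red above and blue below and shades ending at 1.5. Sema6b is blue in all 3 mutants, while Plxna4 and Nrp1 are red in mutant 5 and blue in mutants 6 and 7.

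Slits and Robos gave no gene at an unadjusted p below 0.05, beside 21.4% of all genes. Slit2 was at 124, 97.6 and 94.8 CPM across controls 1 to 3 and 211, 98.3 and 136 CPM across mutants 5 to 7. Mutant 5 was far above the rest, and the change was 0.43 ± 0.24 (SE; limma adjusted p = 0.343) with it and 0.14 without it. Slit3, the most abundant Slit per length, measured 73.8, 60.2 and 55.2 CPM among control libraries, against 91.6, 52.4 and 41.8 CPM among mutant libraries. Mutants 6 and 7 were below all controls and mutant 5 above them all, and the change went from -0.09 ± 0.25 (SE) to -0.41 without mutant 5 (limma adjusted p = 0.221). Slit1 was rare, at 2.40, 4.79 and 4.59 CPM among control libraries, against 3.91, 2.74 and 1.79 CPM among mutant libraries. Of the receptors, Robo1 stood at 257, 329 and 216 CPM across controls 1 to 3 and 207, 226 and 229 CPM across mutants 5 to 7 (-0.26 ± 0.14, SE; limma adjusted p = 0.332). Robo1 in mutants 6 and 7 lay above control 3, so these groups overlapped. Robo2 averaged 137 ± 33.4 CPM in the controls and 144 ± 14 CPM in the mutants (SD, n = 3 each).

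The ephrins had a median change of -0.20, with 6 of 8 below 0 and none called. Efna2, an ephrin anchored by a lipid, was at 32.3, 27.2 and 25.5 CPM among control libraries, against 21.6, 24.3 and 20.2 CPM among mutant libraries. Its groups did not overlap, and the change was -0.35 ± 0.13 (SE; limma adjusted p = 0.171). Efnb3, a transmembrane ephrin and midline barrier in the spinal cord, measured 27.1, 22.4 and 21.0 CPM across controls 1 to 3 and 21.2, 17.6 and 14.5 CPM across mutants 5 to 7. Mutant 5 just overlapped with control 3, and the change was -0.39 ± 0.16 (SE; limma adjusted p = 0.208). Efnb1, the ephrin whose human counterpart is mutated in craniofrontonasal syndrome, stood at 64.9, 65.9 and 49.4 CPM among control libraries, against 52.0, 52.8 and 43.1 CPM among mutant libraries. Efnb1 is on the X chromosome and was lowest, in both groups, in the libraries with high Xist, control 3 and mutant 7. This order is not particular to the X chromosome. It was also seen for autosomal members such as Dcc, Efna2, Efnb3, Plxnd1 and Sema5a. Of the other X-linked members, Plxnb3 showed it and Plxna3 did not. The change of Efnb1 was -0.27. A covariate for the sex of the material cannot move this estimate, since high Xist is balanced between the groups. With the covariate the limma adjusted p went from 0.283 to 0.169.

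Efna4 was at 13.1, 16.7 and 13.8 CPM across controls 1 to 3 and 10.5, 13.4 and 12.7 CPM across mutants 5 to 7, with overlap (-0.23 ± 0.15, SE). An antisense transcript shares 10.5% of its exon bases. Efnb2 and Efna5, the most abundant ephrins per length, were close to equal between the genotypes. Efnb2, which marks arteries, measured 152, 202 and 166 CPM among control libraries, against 154, 183 and 188 CPM among mutant libraries, with a 95% fold interval of 0.830 to 1.23. Efna5 stood at 73.7, 66.3 and 68.8 CPM across controls 1 to 3 and 77.8, 65.7 and 67.3 CPM across mutants 5 to 7, with an interval of 0.864 to 1.18.

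None of the 14 Eph receptors passed an unadjusted p of 0.05, beside 21.4% of all genes. The control and mutant values of all 14 overlapped, while 27.8% of all genes did not overlap between the groups. Ephb2 was at 139, 174 and 115 CPM among control libraries, against 148, 137 and 137 CPM among mutant libraries. Ephb3 measured 78.9, 80.4 and 68.8 CPM across controls 1 to 3 and 64.0, 70.3 and 69.7 CPM across mutants 5 to 7. The 95% fold intervals of these receptors of Efnb1 were 0.803 to 1.25 for Ephb2 and 0.771 to 1.04 for Ephb3. Ephb4, the receptor that marks veins, had the smallest p of the family (0.0527; limma adjusted p = 0.238) and stood at 196, 184 and 152 CPM among control libraries, against 144, 157 and 145 CPM among mutant libraries. Only mutant 6 reached the lowest control. Epha3 was at 254, 275 and 132 CPM across controls 1 to 3 and 145, 224 and 244 CPM across mutants 5 to 7, and 1 library in each group was far below the others. Epha2 measured 13.3, 23.2 and 13.9 CPM among control libraries, against 20.5, 18.6 and 23.6 CPM among mutant libraries (0.34 ± 0.21, SE), with control 2 among the mutants. Summed over the 14 genes, Eph receptors came to 1021 ± 175 CPM in the controls and 969 ± 46.0 CPM in the mutants (SD, n = 3 each).

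Of the 4 netrin receptors of the Unc5 family, 3 were higher in the mutants at an unadjusted p below 0.05, beside 13.4% of all genes, and none was called. The median change of the 4 genes was 0.48. Unc5d stood at 13.4, 12.8 and 13.2 CPM across controls 1 to 3 and 17.5, 21.5 and 21.9 CPM across mutants 5 to 7. The 3 controls were nearly equal and all 3 mutants were above them, with a change of 0.59 ± 0.13 (SE; unadjusted p = 0.00156) and a limma adjusted p of 0.0751. The gene lies at chr8:28646717-29219636 on the minus strand. Unc5b, which is also expressed by endothelial cells, was at 21.2, 25.9 and 17.4 CPM among control libraries, against 31.3, 26.4 and 29.4 CPM among mutant libraries. Its groups were separate by a small margin between control 2 and mutant 6 (0.43 ± 0.15, SE; limma adjusted p = 0.160). Unc5c measured 57.8, 71.4 and 37.7 CPM across controls 1 to 3 and 85.7, 63.6 and 86.4 CPM across mutants 5 to 7. Control 2 was above mutant 6, and the change of 0.52 ± 0.22 (SE; limma adjusted p = 0.214) went to 0.27 without control 3. Unc5a, the fourth of the family, was at 4.73 to 6.63 CPM over all libraries and its groups overlapped.

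Of the attractive receptors, Neo1 stood at 216, 174 and 144 CPM among control libraries, against 179, 155 and 162 CPM among mutant libraries. Dcc was at 45.9, 46.0 and 22.7 CPM across controls 1 to 3 and 37.5, 28.1 and 20.1 CPM across mutants 5 to 7. Both overlapped between the groups, with changes of -0.09 ± 0.14 for Neo1 and -0.38 ± 0.29 for Dcc (SE). The ligand Ntn1 measured 103, 82.3 and 81.1 CPM among control libraries, against 64.9, 73.7 and 80.6 CPM among mutant libraries. The highest mutant was 80.6 CPM and the lowest control 81.1 CPM, and the change was -0.27 ± 0.12 (SE; limma adjusted p = 0.240). Ntn3 stood at 28.2, 22.0 and 17.0 CPM across controls 1 to 3 and 19.7, 13.9 and 14 CPM across mutants 5 to 7 (-0.46 ± 0.20, SE; limma adjusted p = 0.236). Mutant 5 was above control 3 for this gene.

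The 26 members not described one by one with their change had unadjusted p-values of 0.102 or more and changes between -0.29 and 0.35. They include Epha8 (0.760 to 2.28 CPM) and Epha10, which measured 4.56 CPM in mutant 5 but 0.304 and 0.928 CPM in mutants 6 and 7. Mutant 5 was the highest library for 17 members, or 24.6%, beside 22.2% of all genes. Control 2 was the highest for 24 members, or 34.8%, beside 21.2%, and control 3 was the lowest for 22 members, or 31.9%, beside 21.8%. Across the 69 members, log2(CPM + 1) of mutant 5 had a Pearson r of 0.965 with mutant 6 and 0.966 with mutant 7, and mutants 6 and 7 had 0.990 with each other. Over all genes these values were 0.982, 0.981 and 0.988. With controls 1, 2 and 3, mutant 5 had 0.979, 0.971 and 0.975 across the members. Over all genes it had 0.977, 0.975 and 0.974 with them. These are correlations across genes of single libraries, and genes are not independent replicates.

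Partners and effectors of the same pathways were taken from a list of 60 genes, of which 59 were measured. Of these 59 genes, 1 was called, Ablim3, and 13 passed an unadjusted p of 0.05, with 5 higher and 8 lower in the mutants. That share, 22.0%, is near the 21.4% of all genes, and the median change was -0.10. Ablim3, an actin-binding protein of the family that links netrin signals to the cytoskeleton, fell. It was at 54.5, 36.6 and 47.3 CPM among control libraries, against 18.3, 17.5 and 16.4 CPM among mutant libraries (-1.34 ± 0.15, SE; limma adjusted p = 0.0271). Its limma adjusted p lay between 0.0637 and 0.130 when control 1, control 3 or any 1 mutant was left out. The limma adjusted p of Ablim3 was 0.0519 with the sex covariate and 0.0702 without the intensity trend of the variance. Ablim3 is also expressed in muscle, and the part of muscle, whose marker sum was lower in the mutants, was not tested. The next genes by p were not called. Flrt1, of a family of Unc5 ligands, averaged 23.0 CPM in the controls and 37.5 CPM in the mutants (limma adjusted p = 0.0771). Limk1, a kinase of cofilin, averaged 47.0 and 35.3 CPM (limma adjusted p = 0.101), and Dpysl2, a mediator of Sema3a signals, averaged 209 and 151 CPM (0.106). Gpc1, a heparan sulfate carrier that binds Slits, averaged 136 and 107 CPM (limma adjusted p = 0.113).

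The authors also deposited a filtered list of 2432 genes, or 11.1% of the table, made with a filter that the sources used here do not state. It held 4 of the 69 guidance genes, or 5.80%, namely Sema3e, Sema6b, Sema6c and Unc5d. These are the 4 members with the smallest p-values in the limma fit.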

How the data were processed

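RNA sequencing libraries of mouse soft palate at E14.0 (3 control, 3 mutant) were analysed from the deposited tables, grouped by the labels. The submitters' processing notes name STAR and the build mm10, without versions. The counting step, its strand, the annotation and the library kit were not given in any source used. The authors deposited CPM with a constant of 0.0001 added to each value, as found from the values. The step between low CPM values gave the estimated reads of each library, but 62.9 to 67.9% of low values were whole reads within 0.02, so whole reads were not recovered and no count test was run. All columns of per-sample values were used (0 unused).

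From these values log2(CPM + 1) was computed and all 21938 genes were fitted with limma 3.58.1 in R 4.3.3. The fit used moderated variances with an intensity trend, two-sided tests, Benjamini-Hochberg over all genes and no filter. The procedure was checked on simulated libraries in which every gene had the same spread between replicates. Real genes differ in spread, so that check does not measure what can be called in these libraries. The 6 libraries entered without covariates. An exact permutation test of 3 against 3 libraries cannot go below p = 0.1, so none was used. Alternatives were another pseudocount, a filter, another scaling, other variance priors, a sex covariate read from Xist, a limit of 0.1 on the adjusted p, and leaving out each library. Exon lengths came from GENCODE vM21 (GRCm38), in which all 69 members were matched, and promoter windows from RefSeq (GRCm38.p6); 18 members share exon bases with another gene. Values in every library are given for 43 members: those called, the 30 with the smallest p at 1 CPM or more, the most abundant of each family per length, and 8 named for their known roles. Members and lists were chosen with earlier results of these data known. Precision from depth covers counting error only.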

Additional observations from a re-analysis of the deposited data

How the results depend on the processing

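The 1 call among the guidance genes (Sema6b) held with a pseudocount of 0.1 CPM, a minimum mean of 1 CPM, median scaling and robust variances. The count was 0 without the variance trend and 0 with the sex covariate, and 3 at an adjusted p below 0.1. When each library was left out in turn, it ranged from 0 to 1. Over all genes the count of 105 went to 0 without the trend, 0 with the sex covariate, 174 with robust variances and 999 at an adjusted p below 0.1, and from 0 to 452 when a library was left out (452 without control 2). In the limma fits with no call, 3806 to 4516 genes were at an unadjusted p below 0.05, beside 4702 with all libraries. The 11 members at an unadjusted p below 0.05 became 6 to 18 when a library was left out (18 without control 3, 6 without mutant 7). Of these 11, 5 stayed below 0.05 in all fits (Plxna2, Sema3e, Sema6b, Sema6c and Unc5d). Of the 43 members given in every library, 11 had a change that turned its sign in at least 1 alternative. The cause of these shifts was not tested, beyond fewer libraries where 1 was left out. Median scaling moved the median change of genes with a mean of at least 1 CPM from 0.022 to 0.045. No paired analysis was possible because the groups share no replicate number.

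With 3 libraries a group, the median standard error of a member's log2 change was 0.18, which limits what can be called over all genes. The lowest member, Robo3, was at the level of 3 reads in controls 2 and 3.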
